A study of Mus musculus with 2 samples.

Results

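The extracellular matrix and basal lamina genes described here are 40 of the 32285 features of the deposited matrices, chosen by symbol from a list of collagens, laminins and their linkers, small proteoglycans, glycoproteins, and matrix proteases with their inhibitors. All 40 symbols were found once. They were read in barcodes that had 500 or more genes detected and no more than 10% of their unique molecular identifiers (UMIs) from mitochondrial genes. Muscle satellite cells, the stem cells of skeletal muscle, were FACS-sorted from the tibialis anterior (TA) muscle of mice aged 8 weeks that carried Pax7 CreERT2/+ and Rosa26 mTmG/+, in which a Cre driven by Pax7 marks the cells of the Pax7 lineage. The QSC library came from uninjured muscle and held quiescent cells, and the ASC library held activated satellite cells taken on day 1.5 after an injury by cardiotoxin (CTX), a toxin that destroys muscle fibres. Both groups carried the same alleles, the cells of several mice were pooled, and each group was 1 library, so condition and library cannot be told apart and no difference below has a replicate check.

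Every muscle fibre is wrapped in a basal lamina, a thin sheet made of laminin and type IV collagen networks that nidogens and the proteoglycan perlecan hold together. Satellite cells lie between this sheet and the fibre membrane, and they contact it through integrins and dystroglycan. Outside it lies an interstitial matrix of fibrillar collagens and small proteoglycans, which muscle fibroblasts are known to make in large amounts. Because a sorted suspension can hold a few fibroblasts, and their RNA can float into other droplets, each gene is described both in the whole libraries and within classes of barcodes.

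The genes of both type IV collagen chains described here, Col4a1 and Col4a2, are neighbours on chromosome 8 that are read in opposite directions. In the RefSeq promoter windows of the GRCm38.p6 build, Col4a2 starts at 11312805 on the plus strand and Col4a1 at 11312826 on the minus strand, so their first 22 bases overlap. The window is shown because the pair moved alike, with overlapping intervals of their ratios in each comparison below. It covers chr8:11312555-11312854 on the plus strand, and the capitals mark the bases from the start of Col4a2 to the start of Col4a1.
Col4a2: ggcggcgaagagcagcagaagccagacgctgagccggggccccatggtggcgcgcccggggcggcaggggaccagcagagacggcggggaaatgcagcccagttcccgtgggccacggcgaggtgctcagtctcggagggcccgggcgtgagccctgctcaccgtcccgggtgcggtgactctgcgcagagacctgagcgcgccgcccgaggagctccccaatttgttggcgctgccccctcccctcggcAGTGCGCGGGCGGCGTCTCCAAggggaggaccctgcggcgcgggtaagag
Searched on both strands, the 300 bases held 1 CCAAT motif, which 37.4% of all 32851 windows hold, and 3 GGGCGG motifs, which 35.7% of windows hold at least once. Neither the TATAAA nor the TGANTCA motif was found, and these letters matched 13.6% and 7.81% of all windows. A promoter window was given for 28 of the 40 genes, and these matches are a description of letters only.

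After filtering, 516 QSC barcodes with 1162091 UMIs and 1468 ASC barcodes with 8895815 UMIs were left, and the median barcode held 2155 and 3502 UMIs. No doublets were removed, and 4 barcode sequences occurred in both libraries. Coordinates are of GRCm38 with GENCODE M21. Barcodes were sorted into classes by clustering without the 40 genes and by the share of UMIs from 10 fibre genes. Contractile-low muscle barcodes, with under 5% of UMIs from these fibre genes and outside the named non-muscle clusters, numbered 370 among QSC and 417 among ASC barcodes. Pax7, the defining satellite cell gene, was at 214 CPM (UMIs per 1000000) in the QSC and 29.7 CPM in the ASC members of this class. The median barcode of this class held 2221.5 UMIs in the QSC and 8407 UMIs in the ASC library. CPM are shares of UMIs, so a gene that fell in this class need not have had fewer UMIs per barcode. Contractile-high barcodes, which carry 5% or more fibre UMIs, numbered 104 and 936. Fibroblast-like barcodes, led by Smoc2, Pi16 and Igfbp6, numbered 17 and 1, macrophage/monocyte-like barcodes 16 and 85, and neutrophil-like barcodes 0 and 24. A set of 9 QSC and 5 ASC endothelial-like barcodes was found only at a finer clustering, chosen after the data were seen. Over all kept barcodes, 12 of 12 fibroblast markers fell, from 6022 to 613 CPM in sum, 8 of 13 macrophage/monocyte markers rose, and haemoglobin markers, a sign of red blood cell RNA, went from 122 to 1029.8 CPM. Their part in the results was not tested.

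Matrix genes took a smaller part of the ASC library than of the QSC library. The 40 genes summed to 8073 UMIs in the QSC library, 0.695% of all UMIs, and to 17760 UMIs in the ASC library, 0.200%. A gene was called when it differed at least 2-fold and the exact conditional binomial 95% interval of its ratio left out 1, among genes with at least 20 UMIs in both libraries together, which are the genes tested. With 1 library a group this is a rule of size with its counting error, and no p-value was computed. Of the 39 genes tested, 33 fell in the ASC library, against 21.3% of all 11189 genes tested, and 3 rose (Spp1, Timp1 and Tnc), against 12.9%. The median log2 ratio of ASC over QSC was -2.83 for the matrix genes and -0.10 for all genes tested. Col18a1, Lox and Bgn were tested and not called, and Postn, which encodes the matricellular protein periostin, had 0 UMIs in the QSC and 1 UMI in the ASC library. The median gene with at least 20 UMIs in each library had a log2 ratio of -0.24, and -0.26 in the muscle class described below. TMM scaling, which sets the bulk of genes equal, raised every log2 ratio by 0.31 and by 0.32 there, and turned the calls over all genes from 1446 higher and 2382 lower to 2262 and 1746, with 3 and 33 for the matrix genes. All intervals cover counting error only, and in these sums fewer barcodes of a type and less RNA per barcode cannot be told apart. With at most 1% mitochondrial UMIs, the limit in the methods of the study, 86 QSC barcodes were left, 9 of the genes could be tested, 0 of them fell, against 4.6% of all genes, and Spp1 and Timp1 rose, against 9.76%. The median QSC barcode had 0.719% mitochondrial UMIs in the contractile-high and 4.89% in the contractile-low muscle class.

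**Figure D1:**
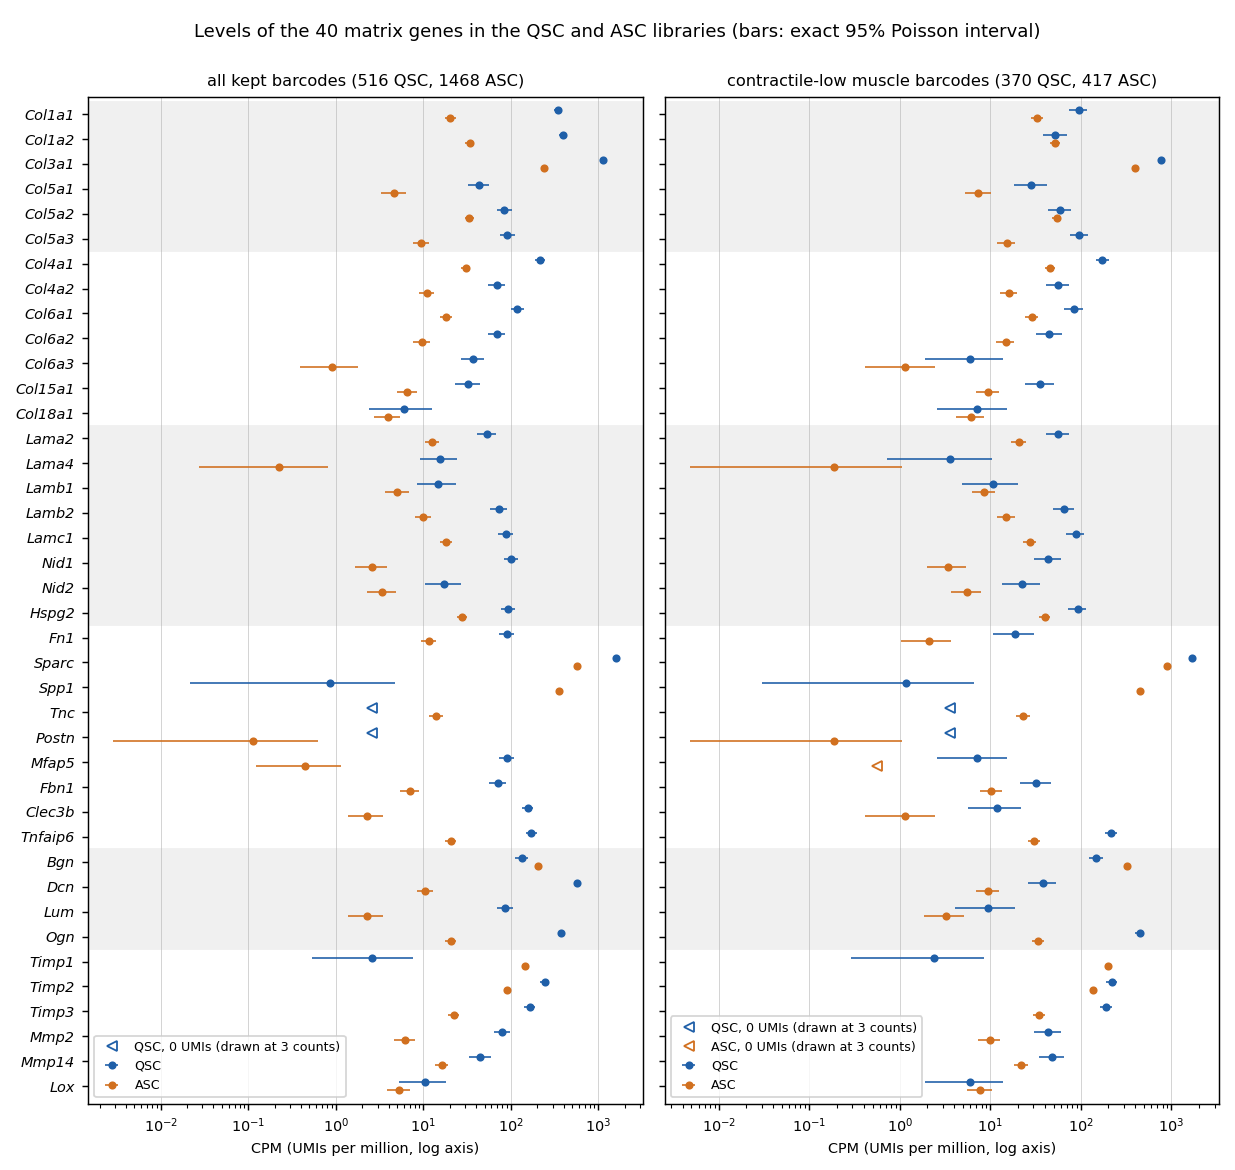
CPM of each of the 40 genes (log axis) in the QSC library (blue) and the ASC library (orange), over all kept barcodes on the left and over contractile-low muscle barcodes on the right, grouped by role with alternating shading; bars are exact Poisson 95% intervals and open triangles stand for 0 UMIs drawn at 3 counts. On the left the blue markers lie to the right of the orange ones for all but Spp1, Tnc, Bgn and Timp1, and on the right the gaps are narrower for most genes. The blue marker of Postn is a triangle for 0 UMIs, so its place is not a measured level.

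The classes held very different amounts of matrix RNA. In the QSC library, the 17 fibroblast-like barcodes held 3650 of the 8073 UMIs of the 40 genes, which made up 6.37% of their own UMIs. The share was 0.503% in contractile-low muscle barcodes, 0.0826% in macrophage/monocyte-like and 0.0280% in contractile-high barcodes. In the ASC library the share was 0.30% in contractile-low muscle barcodes (95% interval 0.295 to 0.304), 0.0236% in contractile-high and 0.141% in macrophage/monocyte-like barcodes. Of the 177 matrix UMIs of the single ASC fibroblast-like barcode, 43 were of Dcn.

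Whether a gene's UMIs in QSC muscle barcodes could be told apart from fibroblast RNA was examined against 8 fibroblast genes used as tracers. RNA that leaks from 1 source keeps its genes in 1 ratio in every class, so the CPM in contractile-low muscle barcodes was expressed as a percent of the CPM in fibroblast-like barcodes. The 8 tracers gave 7.43% (6.65 to 8.30) when pooled, but they were uneven. Smoc2 was at 0.290%, Pi16 at 0.529%, Igfbp6 at 0.772% and Pdgfra at 1.42%, whereas Serpinf1 was at 4.92% and Abca8a, Dpt and Htra3 lay between 29.5% and 34.5%. The first 4, pooled after their values were seen, gave 0.675% (0.470 to 0.943). They are the lowest of the 8, and 3 of them led the cluster that defines the class, so no gene is placed against them. These 4 genes summed to 44.9 CPM in contractile-low muscle, 37.3 in contractile-high and 30.6 in macrophage/monocyte-like barcodes of the QSC library (the last from 1 UMI), against 6650.3 in fibroblast-like barcodes. Of the 32 matrix genes with at least 20 UMIs in muscle and fibroblast-like barcodes together, 14 lay above the 8 pooled tracers, 8 were not apart from them and 10 lay below. Against the highest single tracer, Htra3, 2 lay above (Timp3 and Tnfaip6). The 8 tracers summed to 794 CPM in contractile-low muscle but 74.6 CPM in contractile-high QSC barcodes. They did not share 1 ratio, so 7.43% is not a measured leak level. A place above, not apart from or below it therefore does not show where a gene's RNA came from.

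**Figure D2:**
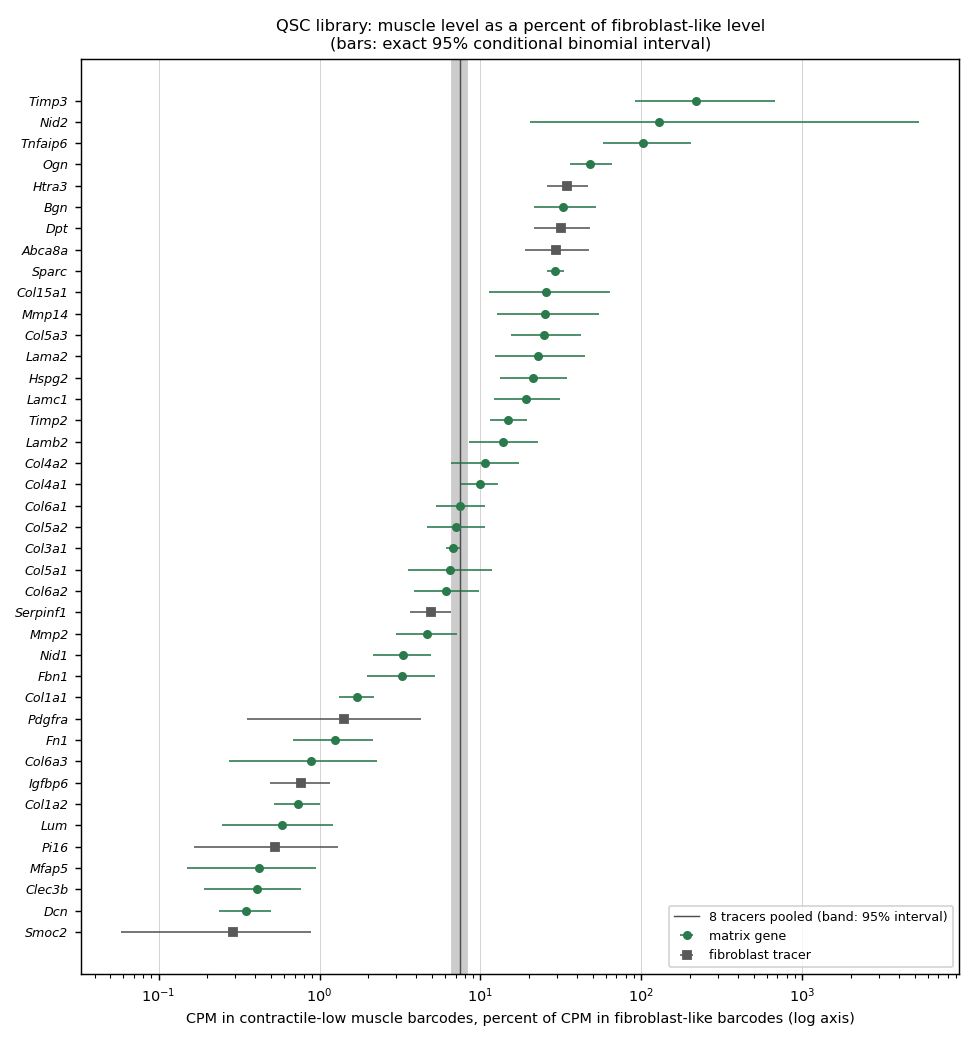
For each matrix gene (green circles) and each fibroblast tracer (grey squares) with at least 20 UMIs, the QSC CPM in 370 contractile-low muscle barcodes as a percent of the CPM in 17 fibroblast-like barcodes (log axis), with exact 95% intervals; the line and band mark the 8 tracers pooled, 7.43%. Dcn, Clec3b, Mfap5, Lum, Col1a2, Col6a3 and Fn1 sit among the lowest tracers, and Ogn, Tnfaip6, Nid2 and Timp3 lie at the top, Nid2 with a wide interval from 1 fibroblast-like UMI.

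The fibrillar collagens, which form the tensile fibres of the interstitial matrix, all fell in the whole libraries (6 of 6). In contractile-low muscle 3 of 6 fell. Of all genes tested, 21.3% fell in the whole libraries and 20.6% in contractile-low muscle. Col1a1 and Col1a2 encode the chains of type I collagen. Col1a1 was at 346 CPM (313 to 381) in the QSC and 20.3 CPM (17.5 to 23.5) in the ASC library, for a log2 change of -4.09 (-4.35 to -3.83). Its partner Col1a2 was at 389 CPM (354 to 427) and 33.9 CPM (30.2 to 38.0), for a log2 change of -3.52 (-3.73 to -3.30). Most of these QSC UMIs lay in the 17 fibroblast-like barcodes, with 79.1% of Col1a1 and 89.8% of Col1a2. In contractile-low muscle, Col1a2 was at 52.0 CPM in the QSC and 52.1 CPM in the ASC library, for a log2 change of 0.00 (-0.46 to 0.50), and its muscle level was 0.733% (0.525 to 1.0) of the fibroblast-like level, below the 8 pooled tracers. Col1a1 was at 94.5 and 32.5 CPM there, for a log2 change of -1.54 (-1.93 to -1.14). Type III collagen, the fine reticular collagen encoded by Col3a1 (chr1:45311538-45349706, plus strand), was spread otherwise, with 49.9% of its QSC UMIs in muscle barcodes. Col3a1 was at 778 CPM (720.1 to 840.2) in QSC and 393 CPM (376 to 410.4) in ASC contractile-low muscle, for a log2 change of -0.99 (-1.11 to -0.86) that just missed 2-fold. It was at 9.32 CPM in contractile-high QSC barcodes, so that the fibre-rich barcodes held far less of it than the muscle class. The type V chains, which set the width of collagen fibrils, differed among themselves in contractile-low muscle. Col5a3 fell from 95.7 to 15.1 CPM, for a log2 change of -2.66 (-3.13 to -2.20). Col5a1 fell from 28.3 to 7.37 CPM, while Col5a2 was at 59.1 and 54.2 CPM, for a log2 change of -0.12 (-0.56 to 0.34) that was not called. Under TMM scaling the muscle log2 ratios of Col1a2 and Col5a2 were 0.32 and 0.19, and neither was called.

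The basal lamina and microfibril collagens fell in the whole libraries (6 of 7 genes, against 21.3% of all genes). In contractile-low muscle 5 of 6 tested fell, against 20.6%. Type IV collagen builds the network of the basal lamina. Col4a1 was at 216 CPM (190.1 to 244) in the QSC and 30.4 CPM (26.8 to 34.2) in the ASC library, for a log2 change of -2.83 (-3.08 to -2.58), and Col4a2, which shares its start region shown above, had a ratio of -2.68 (-3.12 to -2.23). In contractile-low muscle the pair went from 172 to 45.9 CPM and from 55.5 to 16.1 CPM, with log2 ratios of -1.91 (-2.21 to -1.60) and -1.79 (-2.32 to -1.24). Their exons overlap on opposite strands, and the handling of strand in the counting was not given in the sources used here. QSC muscle barcodes held them at 9.88% (7.61 to 12.9) and 10.6% (6.57 to 17.4) of the fibroblast-like level, not apart from the 8 pooled tracers. Endothelial-like barcodes held both genes too, at 272 and 363 CPM in the QSC library, from 3 and 4 UMIs. Type VI collagen forms beaded microfibrils between the basal lamina and the interstitial matrix. Its chains parted in QSC muscle barcodes, where Col6a1 and Col6a2 were at 7.51% and 6.12% of the fibroblast-like level and Col6a3 at 0.890% (0.274 to 2.27). Col6a1 fell from 83.9 to 28.5 CPM in contractile-low muscle and Col6a2 from 44.9 to 14.7 CPM, whereas Col6a3 had only 5 and 6 UMIs there. Col15a1 and Col18a1 encode collagens of the basement membrane zone. Col15a1 fell from 35.4 to 9.45 CPM in contractile-low muscle, for a log2 change of -1.91 (-2.59 to -1.20). Col18a1 was not called and changed sign under TMM scaling, from -0.23 to 0.09, with 6 QSC and 32 ASC UMIs.

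Laminins, the heterotrimers that polymerise on the cell surface, and their linkers all fell in the whole libraries (8 of 8). In contractile-low muscle 6 of 7 tested fell. The shares of all genes that fell were 21.3% and 20.6%. Lama2 encodes the alpha chain of the main muscle laminin. It was at 55.5 CPM (40.8 to 73.8) in QSC and 20.8 CPM (17.1 to 25) in ASC contractile-low muscle, for a log2 change of -1.42 (-1.92 to -0.89). The beta and gamma chain genes Lamb2 and Lamc1 fell from 65.0 to 14.9 CPM and from 87.4 to 27.4 CPM. Lamb1 was at 10.6 and 8.50 CPM and was not called. QSC muscle barcodes held Lama2, Lamc1 and Lamb2 at 22.7%, 19.3% and 13.8% of the fibroblast-like level, above the 8 pooled tracers. Lama4, the alpha chain of vessel and nerve laminins, had 3 UMIs in QSC and 1 in ASC contractile-low muscle, against 12 in fibroblast-like QSC barcodes. The 2 nidogens, which bridge laminin and type IV collagen, were placed differently. Nid1 had 65.5% of its QSC UMIs in fibroblast-like barcodes and Nid2 5.0%. In contractile-low muscle Nid1 went from 43.7 CPM (30.8 to 60.2) to 3.40 CPM (2.02 to 5.37), for a log2 change of -3.68 (-4.58 to -2.83). Nid2 went from 22.4 CPM (13.5 to 35.0) to 5.48 CPM (3.67 to 7.87), for a log2 change of -2.03 (-2.92 to -1.12). Hspg2, which encodes perlecan, the large heparan sulfate proteoglycan of the basal lamina, fell from 92.1 to 40.0 CPM, for a log2 change of -1.20 (-1.58 to -0.81).

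The small leucine-rich proteoglycans bind collagen fibrils and growth factors, and their 4 genes took 3 courses. Dcn (decorin) and Lum (lumican) were found mostly outside the muscle class, with 93.8% and 92.0% of their QSC UMIs in fibroblast-like barcodes. Dcn was at 37.8 CPM (25.9 to 53.4) in contractile-low muscle, 28.0 CPM (10.3 to 60.9) in contractile-high and 61.2 CPM (7.41 to 221) in macrophage/monocyte-like QSC barcodes, levels whose intervals overlap. It was at 10787 CPM in fibroblast-like barcodes. In the ASC library 45.7% of its 94 UMIs came from the single fibroblast-like barcode. Ogn (osteoglycin, chr13:49608046-49624501, plus strand) was found in muscle barcodes, at 445 CPM (401 to 493) in contractile-low muscle, 23.3 CPM in contractile-high and 925 CPM in fibroblast-like QSC barcodes. The muscle level was 48.1% (36.0 to 65.4) of the fibroblast-like level, above the 8 pooled tracers. Ogn fell to 33.4 CPM (28.7 to 38.7) in ASC contractile-low muscle, for a log2 change of -3.74 (-4.00 to -3.47), 13.3-fold lower. Bgn (biglycan, chrX:73483602-73495933, plus strand) went the other way, with 149 CPM (124 to 177) in QSC and 326 CPM (310.5 to 341) in ASC contractile-low muscle. Its log2 ratio there was 1.13 (0.87 to 1.40), 2.19-fold higher, while over all kept barcodes it was 0.62 (0.38 to 0.87) and was not called.

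Among the adhesive, matricellular and fibril proteins, 6 of 8 tested fell in the whole libraries and 2, Spp1 and Tnc, rose. In contractile-low muscle 3 of 6 fell and the same 2 rose. Of all genes, 21.3% fell and 12.9% rose in the whole libraries, and 20.6% and 15.4% in contractile-low muscle. Sparc (chr11:55394500-55423183, minus strand) encodes osteonectin, a collagen-binding protein of basement membranes. It was at 1570.4 CPM (1499 to 1644) in the QSC and 562 CPM (547 to 578) in the ASC library, for a log2 change of -1.48 (-1.56 to -1.40). In contractile-low muscle it was at 1697 CPM (1611 to 1787) and 905 CPM (879 to 931), for a log2 change of -0.91 (-0.99 to -0.82) that was not called. It was at 65.3 CPM (35.7 to 109.5) in contractile-high and 122 CPM (33.4 to 313) in macrophage/monocyte-like QSC barcodes, both below the muscle level. Fn1, which encodes fibronectin, the adhesive protein of provisional matrix, had 82.9% of its QSC UMIs in fibroblast-like barcodes and 77.5% of its ASC UMIs in macrophage/monocyte-like barcodes. Contractile-low muscle held 16 QSC and 11 ASC UMIs of Fn1, for a log2 change of -3.19 (-4.44 to -1.99). Its ASC muscle level was 1.43% (0.688 to 2.71) of the macrophage/monocyte-like level, against 0.576% for 8 macrophage genes used as tracers, of which the highest, C1qa, was at 1.06%. Mfap5 and Fbn1 encode microfibril proteins and Clec3b encodes tetranectin. Mfap5 and Clec3b had 92.4% and 92.2% of their QSC UMIs in fibroblast-like barcodes and stood at 0.419% and 0.408% of that level in muscle barcodes. Fbn1 (fibrillin-1) stood at 3.26% (1.98 to 5.25) and fell in contractile-low muscle from 31.9 to 10.2 CPM. Tnfaip6 encodes TSG-6, a hyaluronan-binding protein that modifies the matrix around cells. It was at 215 CPM (185 to 249) in contractile-low muscle and 209 CPM (108 to 366) in fibroblast-like QSC barcodes, and it fell to 30.4 CPM (25.9 to 35.5) in ASC contractile-low muscle, for a log2 change of -2.82 (-3.14 to -2.51). Within the QSC muscle class it was uneven, at 293 CPM in cluster 3 and 36.8 CPM in cluster 4, and 1 barcode held 30 of its 182 UMIs.

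Spp1, Tnc and Timp1 were the genes that rose in the whole ASC library. Spp1 (chr5:104435118-104441050, plus strand) encodes osteopontin, a secreted integrin ligand. It had 1 UMI in QSC barcodes and 3130 in ASC barcodes, 352 CPM, a ratio of 409-fold with a log2 interval of 6.20 to 13.98. Of the ASC UMIs, 75.7% lay in contractile-low muscle, 17.9% in macrophage/monocyte-like and 3.99% in neutrophil-like barcodes. Its level was 448 CPM (429.9 to 466) in contractile-low muscle, 1029 CPM (945 to 1118) in macrophage/monocyte-like and 2718 CPM (2262 to 3238) in neutrophil-like barcodes, so the myeloid classes stood above the muscle class. The muscle level of Spp1 was 43.5% of the macrophage/monocyte-like level. The 8 macrophage tracers pooled were at 0.576%, and single ones ranged from 0.202% (C1qc) to 1.06% (C1qa). The part of macrophage and neutrophil RNA in the muscle UMIs of Spp1 was not tested. Timp1, an inhibitor of matrix metalloproteinases, had 3 QSC and 1295 ASC UMIs, for a log2 change of 5.82 (4.27 to 8.10). In the ASC library it was at 198 CPM (186 to 210.1) in contractile-low muscle, 74.6 CPM (65.1 to 85.1) in contractile-high and 36.7 CPM (22.4 to 56.6) in macrophage/monocyte-like barcodes. Tnc encodes tenascin-C, a matricellular glycoprotein of developing and healing tissue. It had 0 UMIs in the QSC library, which allows up to 2.58 CPM, and 125 in the ASC library, at least 5.44-fold higher. Contractile-low muscle held 122 of these, 23.0 CPM (19.1 to 27.5).

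Of the other 5 protease, inhibitor and cross-linker genes, 4 fell in the whole libraries and 3 in contractile-low muscle, against 21.3% and 20.6% of all genes. Timp2 and Timp3 encode further metalloproteinase inhibitors, and Timp3 is the one that binds to the matrix itself. Timp3 was at 190.2 CPM (162 to 222) in contractile-low muscle and 87.3 CPM (28.3 to 204) in fibroblast-like QSC barcodes, and the 9 endothelial-like QSC barcodes held it at 2087 CPM (1323 to 3132), from 23 UMIs. It fell to 34.8 CPM (29.9 to 40.2) in ASC contractile-low muscle, for a log2 change of -2.45 (-2.76 to -2.14). Timp3 (chr10:86300372-86349506, plus strand) shares exon sequence on the opposite strand with Syn3. Timp2 was at 219.7 and 136 CPM in contractile-low muscle, for a log2 change of -0.70 (-0.93 to -0.46) that was not called, although it fell in the whole libraries with -1.42 (-1.62 to -1.22). Mmp2 encodes gelatinase A and Mmp14 the membrane protease that activates it. Mmp2 fell in contractile-low muscle from 43.7 to 9.82 CPM, and Mmp14 from 48.4 to 21.9 CPM. In the ASC library Mmp14 was at 34.8 CPM (21 to 54.4) in macrophage/monocyte-like barcodes, and its interval overlapped that of the muscle class. Lox, the collagen cross-linking enzyme, had 12 QSC and 47 ASC UMIs and was not called in either comparison.

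In contractile-low muscle as a whole, 35 of the 40 genes could be tested, 23 fell, against 20.6% of 9968 genes, and 4 rose (Bgn, Spp1, Timp1 and Tnc), against 15.4%. Col6a3, Lama4, Postn, Mfap5 and Clec3b had too few UMIs. The median log2 ratio was -1.56, and -0.06 over all genes tested. The classes compared were made of different clusters, since 229 of the 370 QSC barcodes lay in cluster 3, with Fosb and Chodl among its leading genes, and 73 in cluster 4, while most ASC barcodes lay in clusters 1, 4 and 9. Cluster 1 (238 ASC barcodes, led by Iigp1, Ifit1 and Bdnf, with the mural marker Tagln also among its 10 leading genes) and cluster 4 (103, with the replication and mitosis genes Rrm2, Mcm10 and Plk1 among its leading genes) were left unnamed. Cluster 9 (46 ASC barcodes) was activated satellite-like by Mymk, Myog and Mymx. Depth differed, with medians of 5651, 28243 and 11888.5 UMIs in the ASC barcodes of the 3 clusters, and cluster 4 held 2604172 of the 5293547 ASC UMIs of the class. Pax7 was at 62.8, 11.5 and 0 CPM in them. With each barcode weighted equally, Col1a1, Col6a1, Col6a2, Lama2, Hspg2 and Mmp14 no longer fell 2-fold, with log2 values of -0.43, -0.67, -0.71, -0.62, -0.93 and -0.30. Summed fibroblast markers went from 4401 to 889 CPM in contractile-low muscle, where 7 of 9 tested fell and the defining gene Pdgfra had 4 and 0 UMIs. Endothelial markers went from 36.6 to 15.7 CPM, macrophage/monocyte markers from 145 to 165 CPM, and tenocyte markers from 9.45 to 48.4 CPM. Summed mural markers went from 516 to 1284 CPM, although 3 of 6 tested fell and 1 rose, with a median log2 ratio of -1.17. Haemoglobin markers went from 131 to 1680.0 CPM, and 4 of 4 tested rose. The part of these cell types in the results was not tested. The class carried the marks of its labels, with 9 of 11 quiescent satellite markers lower and 10 of 10 activated satellite markers higher in the ASC library.

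Against QSC contractile-low muscle, the ASC clusters differed from each other. This split was chosen after the data were seen. In cluster 1, 9 of 34 tested genes fell, against 14.6% of all genes, and 4 rose, against 11.7%. In cluster 4, 25 of 32 fell, against 26.1%, and 3 rose, against 20.7%. With cluster 9, 24 of 27 fell, against 21.5%, and 1 rose, against 14.2%. The median log2 ratio of the tested genes was -0.54, -2.84 and -3.29. These are ratios of shares of UMIs, and the ASC barcodes were deeper. Their medians were 5651, 28243 and 11888.5 UMIs, against 2221.5 in QSC contractile-low muscle. A lower share thus does not show fewer UMIs of a gene per barcode.

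Col3a1 was at 778 CPM in QSC muscle, and in the ASC library at 905 CPM in cluster 1, 106 in cluster 4 and 143 in cluster 9. Its log2 ratio was 0.22 (0.09 to 0.35) for cluster 1 and -2.88 (-3.08 to -2.67) for cluster 4. Its share of UMIs thus fell in cluster 4 and stayed within 2-fold in cluster 1. Col1a1 was at 91.1 CPM in cluster 1, 1.15 in cluster 4 and 0 in cluster 9, next to 94.5 CPM in QSC muscle. Both type IV collagen genes followed this order, with log2 ratios of -0.62 (-0.93 to -0.30) and -0.56 (-1.12 to 0.01) in cluster 1 and -4.56 (-5.34 to -3.87) and -3.85 (-5.00 to -2.85) in cluster 4. Sparc was at 1702 CPM in cluster 1, 254 in cluster 4 and 1457 in cluster 9, against 1697 CPM in QSC muscle, so that only the cluster 4 level was 2-fold lower among these 3. Bgn was at 780.3 CPM in cluster 1, 51.5 in cluster 4 and 106 in cluster 9, against 149 CPM, and its log2 ratio was 2.39 (2.13 to 2.66) in cluster 1 and -1.53 (-1.89 to -1.17) in cluster 4. The summed class, in which Bgn rose, thus held a higher and a lower level than QSC muscle.

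The genes that fell in cluster 1 were Col5a3, Lamb2, Nid1, Fn1, Dcn, Ogn, Timp3, Mmp2 and Tnfaip6, and all 9 also fell in the summed class. Fibroblast-like barcodes held 93.8% of the QSC UMIs of Dcn, 82.9% of Fn1, 65.5% of Nid1 and 58.7% of Mmp2. For the others they held 31.8% or less. The part of fibroblast RNA in these falls was not tested. Ogn was at 70.9 CPM in cluster 1, 9.22 in cluster 4 and 13.3 in cluster 9, against 445 CPM in QSC muscle, and its interval lay below a 2-fold drop in each. Timp3 was at 68.8 CPM in cluster 1, 9.60 in cluster 4 and 28.2 in cluster 9, against 190.2 CPM. Tnfaip6 was at 79.1 CPM in cluster 1, 4.61 in cluster 4 and 1.66 in cluster 9, against 215 CPM in QSC muscle as a whole. That reference is a mix, since the QSC barcodes of cluster 4 stood well below those of cluster 3, as given above. The genes that rose had another order, with Spp1 at 198 CPM in cluster 1, 732 in cluster 4 and 36.5 in cluster 9, Timp1 at 139 CPM in cluster 1, 285 in cluster 4 and 23.2 in cluster 9 and Tnc at 19.6 CPM in cluster 1, 31.5 in cluster 4 and 1.66 in cluster 9. For all 3 the cluster 4 value was above the cluster 1 value, which in turn was above the cluster 9 value.

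**Figure D3:**
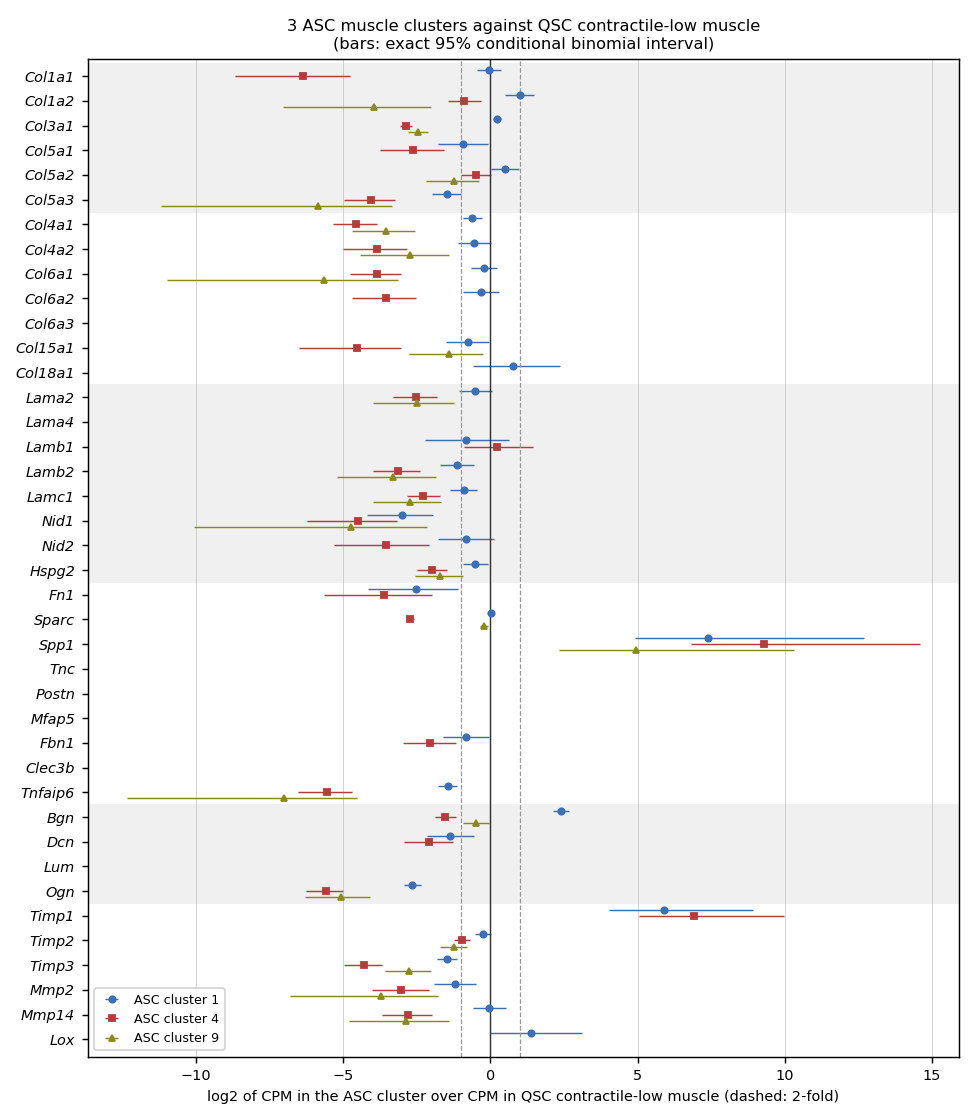
Log2 ratio of the CPM in ASC barcodes of cluster 1 (blue circles), cluster 4 (red squares) and cluster 9 (olive triangles) over the CPM in the 370 QSC contractile-low muscle barcodes, for the genes tested with a UMI in both; bars are exact 95% intervals and dashed lines mark 2-fold. Most blue points lie within or near the dashed lines, most red and olive points lie left of them, and Bgn is right of them for cluster 1 and left for cluster 4.

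**Figure D4:**
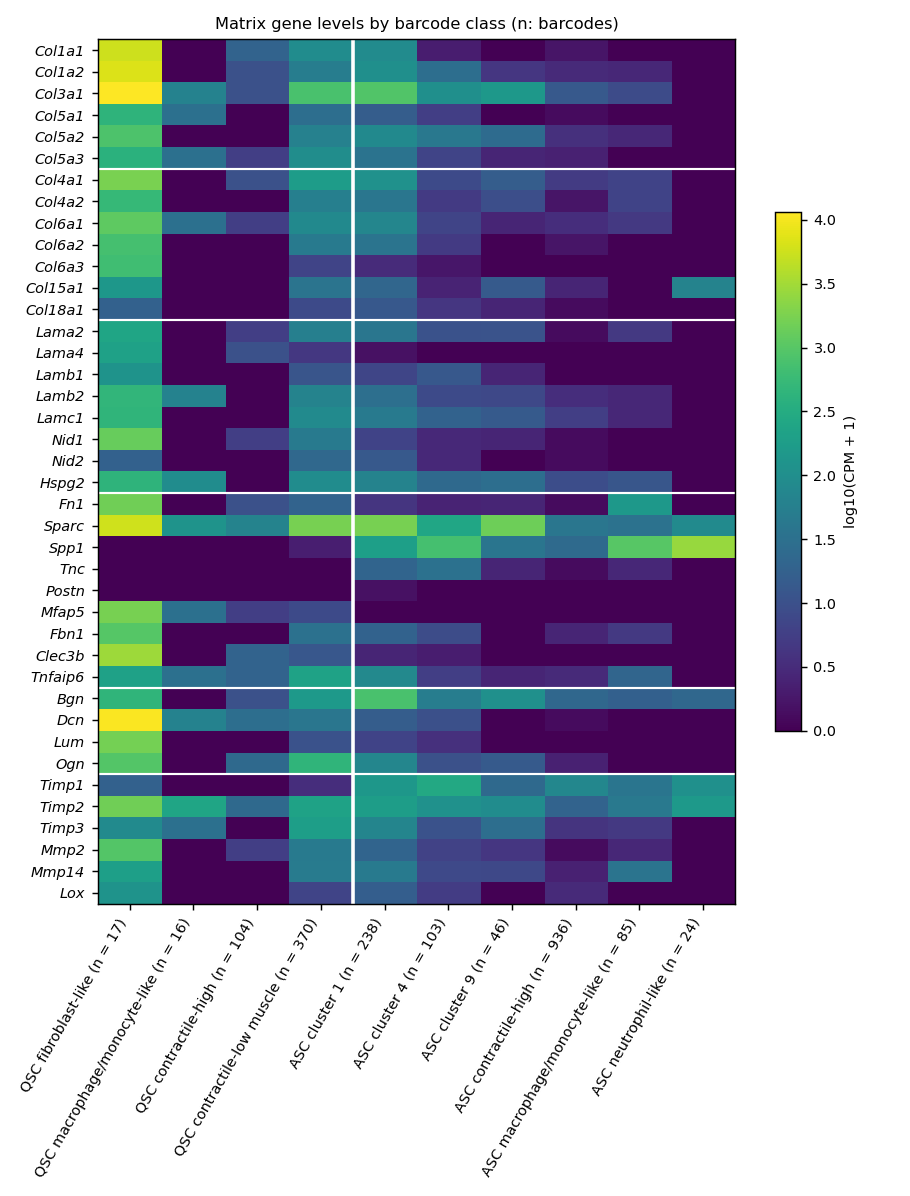
Level of each gene as log10(CPM + 1) in 10 barcode classes, QSC to the left and ASC to the right of the white vertical line, with the number of barcodes in each; genes are grouped by role. Most genes are brightest in the 17 QSC fibroblast-like barcodes, Sparc, Col3a1 and Ogn are also bright in QSC contractile-low muscle, and Spp1 is bright in ASC cluster 4 and in the ASC myeloid classes.

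The share of barcodes with a UMI was compared after each barcode was thinned to 1200 UMIs, which left 366 QSC and 412 ASC contractile-low muscle barcodes. Sparc was found in 79.2% (290 of 366, 74.7 to 83.3) of the QSC and 60.4% (249 of 412, 55.5 to 65.2) of the ASC barcodes, and unthinned in 90.0% and 90.4%. Ogn was found in 38.0% (139 of 366, 33.0 to 43.2) and 7.77% (32 of 412, 5.37 to 10.8), and unthinned in 55.9% and 27.8%. Col3a1 was found in 51.9% (190 of 366, 46.7 to 57.1) and 39.1% (161 of 412, 34.3 to 44.0), and unthinned in 67.0% and 75.8%. At 1200 UMIs, 1.2%, 0% and 3.61% of the 83 macrophage/monocyte-like ASC barcodes held Sparc, Ogn and Col3a1. In the QSC library 0 of 12 such barcodes held each of these 3 genes. Bgn went from 13.9% (51 of 366, 10.6 to 17.9) to 37.9% (156 of 412, 33.2 to 42.7), next to 2.41% of the macrophage/monocyte-like ASC barcodes, and unthinned from 23.5% to 68.1%. Spp1 was in 0 of 366 QSC barcodes after thinning, and in 16.7% (69 of 412, 13.3 to 20.7) of the ASC muscle and 26.5% (22 of 83, 17.4 to 37.3) of the ASC macrophage/monocyte-like barcodes. In QSC muscle, Dcn was in 4.64% (17 of 366, 2.73 to 7.33) of barcodes and Clec3b in 1.37% (5 of 366, 0.445 to 3.16), while 2 and 0 of 12 macrophage/monocyte-like QSC barcodes held them.

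The 40 genes were also read in QSC muscle barcodes with no UMI of any of the 8 fibroblast tracers, 85 barcodes with a median of 2102 UMIs against 2257 in the other 285. Sparc was at 1425 CPM without and 1774 CPM with a tracer UMI. Ogn was at 339 and 475 CPM, and Col3a1 at 581 and 834 CPM. Timp3 was at 253 and 173 CPM, Col4a1 at 177 and 171 CPM, and Hspg2 at 102 and 89.3 CPM. These 6 genes thus had UMIs in muscle barcodes where no tracer was seen. At 672 tracer UMIs over the 370 barcodes, a barcode can lack a tracer UMI and still hold fibroblast RNA. The split therefore cannot tell whether these barcodes were free of it. Between such barcodes of the 2 libraries, 21 genes could be tested, 13 fell, against 16.3% of all genes, and 3 rose, against 16%.

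Lists of other matrix pathway genes were read for comparison and are given by counts. Of 20 matrix receptor genes, which encode integrins, syndecans, dystroglycan and related proteins, 15 were tested in contractile-low muscle, 4 rose, against 15.4% of all genes, and 3 fell, against 20.6%, so the share that fell was near that of all genes. Itga5, the alpha chain of the fibronectin receptor, had 0 QSC and 52 ASC UMIs, and Cd44, a hyaluronan receptor, had a log2 change of 2.67 (2.12 to 3.28). Sdc1, which encodes a syndecan, had 2.57 (1.42 to 4.03). The 3 that fell were Sdc4 with -2.23 (-2.31 to -2.14), Sdc2 with -1.42 (-1.78 to -1.05) and Itgb5 with -1.29 (-2.11 to -0.42). Over all kept barcodes 16 receptor genes were tested, 4 rose, against 12.9% of all genes, and 5 fell, against 21.3%. Of 23 genes of collagen assembly and matrix enzymes, 19 were tested in contractile-low muscle, 0 rose, against 15.4% of all genes, and 6 fell, against 20.6%. The lowest ratios were those of the matrix proteases Adamts1 with -3.31 (-3.63 to -2.99), Adamts5 with -3.02 (-3.54 to -2.50) and Mmp19 with -2.89 (-4.19 to -1.61). Serpinh1, the collagen chaperone, was at 308 CPM in QSC and 438 CPM in ASC contractile-low muscle and was not called. Over all kept barcodes 22 were tested, 0 rose, against 12.9% of all genes, and 12 fell, against 21.3%.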

How the data were processed

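Single-cell RNA-seq libraries (10x Genomics, 3′ chemistry) of QSCs and ASCs were read as the 2 deposited count matrices, which hold UMI counts per gene and barcode, not normalized. Per the labels, the authors used Cell Ranger 7.1.0 with mm10, Seurat 4.1.0 and R 4.1.2, and the file header names Cell Ranger 6.0.2. The gene annotation and strand handling were not given in the sources used here, so overlapping genes are less certain. Doublets were not removed and no caller was run. UMIs were summed over barcodes with at least 500 genes and at most 10% mitochondrial UMIs. CPM were given exact Poisson intervals, ratios exact conditional binomial intervals and shares Clopper-Pearson intervals, at the 95% level. Bounds on genes with 0 UMIs used a floor of 3 counts. Clusters used 1059 variable genes without the 40 members, 10 principal components and resolution 0.6 in Seurat 5.3.0 under R 4.3.3, and were named where at least 3 of the 10 leading genes were in 1 marker list, a rule written after the data were seen. TMM came from edgeR 4.0.16. Sums and intervals used Python 3.11.15, numpy 2.4.6, scipy 1.17.1 and pandas 2.3.3. The calls were run on simulated Poisson counts with known folds. These hold counting error only, so the run says nothing about spread between cells or libraries. All 40 genes were accounted for, with ratios for those with at least 20 UMIs. The genes and lists were chosen with earlier results of these data known. Promoter sequence was from RefSeq (GRCm38.p6). Alternatives covered filters, scaling, classes, tracers and weighting.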

Additional observations from a re-analysis of the deposited data

How the results depend on the processing

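No paired analysis was possible because each group was 1 library. With at most 1% mitochondrial UMIs, 0 of 9 tested matrix genes fell over all kept barcodes, against 4.6% of all genes. The log2 ratios of Col3a1, Sparc and Timp2 turned to 0.19, 0.19 and 0.012, from 86 QSC and 948 ASC barcodes. The median QSC barcode had 4.89% mitochondrial UMIs in contractile-low muscle and 0.719% in contractile-high barcodes, so this limit also changed the mix of classes. In contractile-low muscle the log2 ratio of Col1a2 was 0.0047, against -3.52 over all kept barcodes. In muscle barcodes with no fibroblast tracer UMI, 13 of 21 tested genes fell rather than 23 of 35, with fewer barcodes. The shares of all genes that fell were 16.3% and 20.6%. With ASC cluster 1 alone 9 fell, against 14.6% of all genes, and with ASC cluster 9 alone 1 rose, against 14.2%. Of the genes above the 8 pooled fibroblast tracers, 14 became 2 against the highest single tracer and 25 against Pdgfra, Pi16, Igfbp6 and Smoc2 pooled, a number that follows largely from taking the 4 lowest tracers. The count of genes that fell ranged from 25 to 33 without the fibroblast-like cluster, without all non-muscle clusters, and under the 5% mitochondrial limit, the 1000-gene minimum, TMM scaling, other UMI minimums, all deposited barcodes and the loss of each gene's top barcode. Of all genes, 1746 of 11189 fell under TMM scaling, the lowest share, and 2226 of 10818 under the 1000-gene minimum, the highest. In contractile-low muscle the count of matrix genes that fell ranged from 20 to 27 under the other fibre, marker, cluster, scaling and UMI settings. Of all genes, 1444 of 9968 fell there under TMM scaling, the lowest share, and 2058 of 9968 under the other cluster settings, the highest. With each barcode weighted equally, 34 matrix genes fell over all kept barcodes and 17 in contractile-low muscle. These counts have no share over all genes beside them. Depth limits genes with few UMIs, since 3 counts stand for 2.58 CPM in the QSC and 0.337 CPM in the ASC library. Equal weighting, the single clusters, the 4 pooled tracers and, in contractile-low muscle, the loss of top barcodes were chosen after seeing the data.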
